A study of Homo sapiens with 17 samples.

Results

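The MYC family was described here across naive and primed human pluripotent stem cells (PSCs) as 4 genes: MYC, MYCN, MYCL and PVT1, the long non-coding RNA gene next to MYC. The fragment names expected in the interaction lists were not there (the fourth column holds only strand-like marks), so the members' baits were taken as every baited HindIII fragment that overlapped one of the 4 genes in GENCODE release 44. This gave 9 of the 15982 baited fragments in the lists, with 78 of 128955 interactions and 81 of 88413 fragments when baits and partners were counted together. All cells were of the embryonic stem cell line WA09/H9 NK2, so both states rest on 1 line. Naive PSCs were grown in t2iL with a PKC inhibitor (the MEK inhibitor PD0325901, the GSK3 inhibitor CHIR99021, LIF and Gö6983) and primed PSCs in TeSR-E8 on Vitronectin, so medium and state cannot be told apart. Promoter-capture Hi-C (PCHi-C), which enriches Hi-C libraries for pairs with a promoter fragment, was given as 1 list per state with 2 replicates combined by the authors. H3K4me1, a histone mark of enhancers and promoter flanks, was mapped with CUT&RUN, with 2 libraries of naive and 3 of primed PSCs, and Hi-C was given as 1 library per state.

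MYC, MYCN and MYCL encode basic helix-loop-helix transcription factors that pair with MAX, bind E-box sequences and promote growth, ribosome production and the cell cycle. They are expressed in different lineages, with MYCN known from embryonic and neural tissue, MYC from most dividing cells and MYCL from a narrower set. MYC lies in a gene-poor interval in which distant enhancers of several tissues have been described, and PVT1 begins downstream of it. MYCN has its own antisense gene, MYCNOS, and lies near DDX1, an RNA helicase gene.

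The MYC bait (chr8:127733745-127744733, GRCh38) held the whole MYC gene (chr8:127735434-127742951, plus strand) and a promoter of the antisense lncRNA CASC11. PVT1 (chr8:127794526-128187101, plus strand) had 5 baits inside the gene. None of them held its first promoter; chr8:127995938-128001846 held an internal PVT1 promoter, and others held MIR1205 and MIR1208.

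The MYCN bait (chr2:15932209-15951404) held MYCN (chr2:15940550-15947007, plus strand) with promoters of MYCNOS. MYCL (chr1:39895428-39902256, minus strand) had 2 baits, of which chr1:39899003-39908556 held its promoter and chr1:39896865-39899002 the promoter of MYCL-AS1. Both ends of all 81 fragments lay at HindIII sites of the GRCh38 reference.

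The promoters of MYCN and MYCL are shown because both lie within baits whose contacts and H3K4me1 are described below. Both are RefSeq sequences of 300 bases on GRCh38.p14, from 250 bases before the start that RefSeq gives to 50 after it, written on the strand of the gene. For MYCL that start lies inside the GENCODE gene, so the whole window does too; 2 of the 4 members were matched in the table. Capitals mark matches, on either strand, to letters searched as E-box (CACGTG), E2F site (TTTCGCGC or TTTGGCGC), CCAAT box (CCAAT), octamer (ATGCAAAT), KLF site (CCNCNCCC) or TFAP2 site (GCCNNNGGC).
MYCN, chr2:15940300-15940599, plus strand: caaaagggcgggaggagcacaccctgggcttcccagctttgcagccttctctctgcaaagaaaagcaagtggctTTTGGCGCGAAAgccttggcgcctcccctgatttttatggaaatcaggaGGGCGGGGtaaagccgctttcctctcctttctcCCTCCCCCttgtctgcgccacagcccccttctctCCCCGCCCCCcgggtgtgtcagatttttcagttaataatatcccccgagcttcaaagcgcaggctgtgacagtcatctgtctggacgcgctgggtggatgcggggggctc
MYCL, chr1:39901868-39902167, minus strand: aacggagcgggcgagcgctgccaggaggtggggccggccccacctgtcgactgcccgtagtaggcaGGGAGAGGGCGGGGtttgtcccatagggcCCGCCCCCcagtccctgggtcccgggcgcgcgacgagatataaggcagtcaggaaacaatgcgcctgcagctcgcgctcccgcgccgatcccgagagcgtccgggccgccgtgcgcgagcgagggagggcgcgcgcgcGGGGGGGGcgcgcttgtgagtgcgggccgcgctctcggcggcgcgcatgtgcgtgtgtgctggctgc
The MYCN promoter held 2 matches to the E2F letters, which overlap each other on opposite strands, and 1.15% of the 35116 promoters of the table held any. It also held 4 matches to the KLF letters, as did the MYCL promoter, and 56.2% of all promoters held at least 1. Neither held the E-box letters, found in 7.26% of promoters. GC content was 58.7% for MYCN and 74.7% for MYCL, against a median of 58.7%.

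A pair of short partner fragments of MYCN is shown because the contact of each with MYCN was listed in naive PSCs only and because both were called higher for H3K4me1 in naive PSCs. The sequences are those of the GRCh38 reference, plus strand, and capitals mark the parts of the HindIII sites (AAGCTT) left at each end.
MYCN partner at -308.4 kb, chr2:15633319-15633542: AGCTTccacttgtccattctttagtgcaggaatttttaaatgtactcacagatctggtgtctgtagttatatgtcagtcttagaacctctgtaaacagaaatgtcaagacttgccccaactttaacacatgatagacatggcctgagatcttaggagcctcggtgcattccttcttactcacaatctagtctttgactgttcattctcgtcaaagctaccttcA
MYCN partner at +336.6 kb, chr2:16278350-16278547: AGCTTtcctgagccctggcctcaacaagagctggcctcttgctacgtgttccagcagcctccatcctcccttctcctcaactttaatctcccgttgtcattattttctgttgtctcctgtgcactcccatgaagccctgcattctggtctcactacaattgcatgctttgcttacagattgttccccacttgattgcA
The fragments are 224 and 198 bases long, with GC contents of 40.6% and 49.5%. Neither held any of the 6 motifs listed above; the KLF letters, for example, were found in 16.5% of windows of 224 bases and 14.9% of windows of 198 bases taken from the centres of listed fragments on the members' chromosomes.

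In PCHi-C, MYC had more interactions in primed than in naive PSCs and MYCN had fewer. The MYC bait was listed with 6 interactions in naive and 21 in primed PSCs, of which 2 were shared. The MYCN bait was listed with 40 in naive and 19 in primed PSCs, of which 12 were shared. Each list comes from combined replicates, so these differences have no replicate check and no test was made. Of the listings of MYC, 77.8% were primed (95% Wilson interval 59.2 to 89.4, which covers counting error only), against 52.9% over all interactions. The share for MYCN was 32.2% (21.7 to 44.9). An excess of primed interactions at least as large as the 15 of MYC was seen at 3.43% of baited fragments, and an excess of naive ones at least as large as the 21 of MYCN at 0.382%. The median baited fragment had 3 interactions in either list.

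The partners of MYC changed in place as well as in number. A CHiCAGO score is a weighted, log-transformed p-value for a pair of fragments, and the authors listed pairs with a score of at least 5. About 0.9 Mb upstream, 3 fragments of the lncRNA gene PCAT1, between -916.2 and -863.4 kb, contacted MYC in naive PSCs and 1 of them in primed PSCs. The highest naive score of MYC, 10.39 from 22 reads, was with one of these, chr8:126823165-126829432. The shared PCAT1 fragment at -916.2 kb, also the longest naive contact, had scores of 7.32 in naive and 8.5 in primed PSCs.

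Within PVT1, MYC contacted 3 baited fragments in naive and 1 in primed PSCs. The one in both lists, at +223.4 kb with MIR1205, had scores of 7.24 from 35 reads in naive and 8.8 from 40 reads in primed PSCs. Those at +208.1 kb (score 5.4) and +273.1 kb (score 5.87) were listed in naive PSCs only, with scores close to the minimum. All 3 naive interactions of PVT1 were these contacts with MYC.

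Farther downstream every listed contact of MYC was primed. A fragment at +455.7 kb, past the end of PVT1, had a score of 5.05. A group of 3 fragments of CCDC26, a lncRNA gene, lay between +904.4 and +919.5 kb with scores up to 6.44. A group of 8 fragments within CCDC26 lay between +1794.2 and +1849.5 kb, and 7 more between +1935.6 and +1961.7 kb. The 2 highest scores of any member were in the first of these distal groups, with 18.9 from 23 reads at +1796.2 kb and 15.6 from 20 reads at +1797.4 kb. These 15 contacts over 1 Mb rested on 10 to 23 reads each. Of the members' interactions, 19 were longer than 1 Mb in primed PSCs, 15 of MYC and 4 of PVT1, and 0 in naive PSCs. The paper describes a gain of interactions over 1 Mb as common in primed PSCs. The members' count was not compared with that of all interactions.

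**Figure D1:**
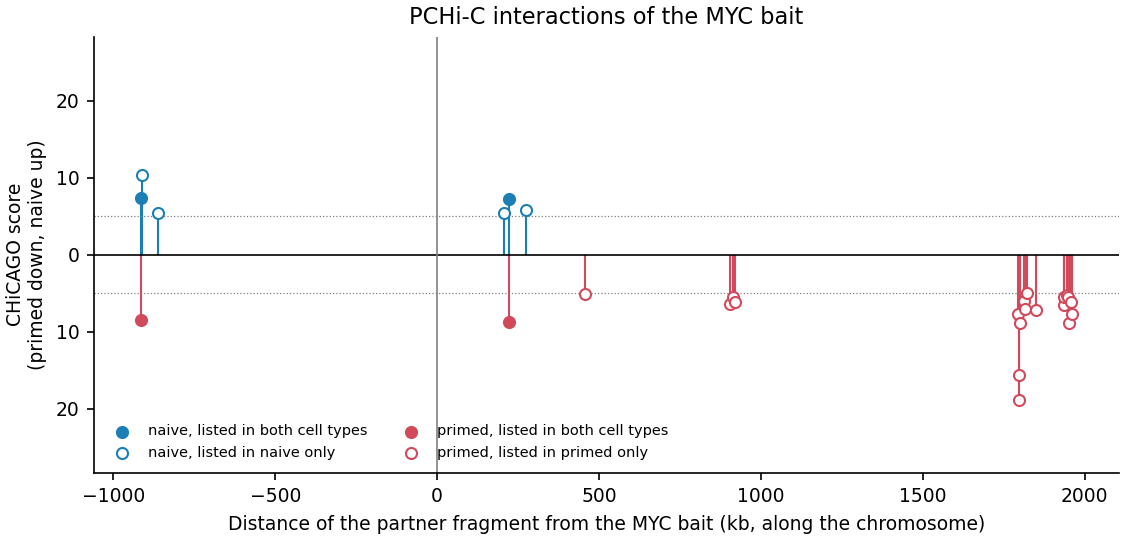
PCHi-C interactions of the MYC bait. Each line is 1 interaction, placed by the distance of the partner fragment from the bait (kb) with its CHiCAGO score, naive upwards and primed downwards; filled circles are interactions in both lists, and dotted lines mark the score of 5. Downstream of +273.1 kb there are only primed interactions, with the highest score, 18.9, at +1796.2 kb.

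Some of the distal partners of MYC were also contacted from other baits. The internal PVT1 promoter bait contacted the fragment at chr8:129534833-129536039 in primed PSCs (score 5.44, 7 reads), over 1536.5 kb. The MIR1208 bait of PVT1 contacted 3 distal fragments in primed PSCs, with scores from 5.46 to 5.97, the farthest at 1555.8 kb. Of these only chr8:129536040-129537198 was also a partner of MYC. A bait in an exon of CCDC26 (chr8:128808815-128820772) contacted both fragments with the highest MYC scores in both states. Its scores were 5.29 in naive and 8.4 in primed PSCs for chr8:129534833-129536039, and 7.01 and 6 for chr8:129536040-129537198. Both fragments were therefore listed with 1 bait in naive and 3 baits in primed PSCs. The whole interval from 127 to 130 Mb of chromosome 8 holds 3 protein-coding genes that lie entirely inside it (POU5F1B, MYC and GSDMC). It had 11 naive and 27 primed interactions, 4 of them shared, from 8 baits inside it and from baits beyond its end. The remaining bait inside it, of the lncRNA gene ENSG00000254317, had 2 naive interactions, one of them with the promoter bait of CYRIB, and 0 primed ones.

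Hi-C gave a second view of the same contacts at 100 kb resolution. PCHi-C is made by capture from Hi-C libraries, so the assays are not independent. The file listed 24679549 contacts within chromosomes in naive and 44820314 in primed PSCs. In primed PSCs, the bin that holds MYC had 112 contacts with the bin 1800 kb downstream, 9.73 times the mean of chromosome 8 at that distance (8.01 to 11.7, exact Poisson 95% interval, counting error only). Of the 1390 pairs of bins of chromosome 8 at this distance, this was the single highest, 0.0719% of them. The next bins, at +1900 and +2000 kb, were at 7.15 times (5.64 to 8.95) and 3.42 times (2.36 to 4.81) the mean. The 9 bins more than 1 Mb downstream without a PCHi-C partner of MYC were between 1.02 and 3.07 times the mean. The bin at +900 kb, with the CCDC26 group, stood at 4.01 times the mean (3.40 to 4.69) from 155 contacts.

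The naive Hi-C file leaves out most pairs at long distance: at 1800 kb it listed 1.60% as many pairs of chromosome 8 as the primed file, so a distal contact that it lacks cannot be read as absent. It did list 17 contacts of MYC with the bin at +2000 kb, which holds a primed PCHi-C partner, 1 of only 11 pairs of chromosome 8 that it listed at that distance. At +900 kb, where PCHi-C listed MYC contacts in primed PSCs only, the naive Hi-C file did list 93 contacts, more than its 70, 48 and 53 at +600, +700 and +800 kb. Both files were nearly complete up to 400 kb, and there the naive library had the higher values upstream of MYC. At -200 kb they were 1.84 times the mean in naive (1.65 to 2.05) and 1.15 times in primed PSCs (1.01 to 1.30), and at -400 kb 1.53 (1.28 to 1.81) and 1.03 (0.851 to 1.24). At +100 kb, within PVT1, the naive value was also the higher, 0.532 (0.461 to 0.611) against 0.324 (0.274 to 0.382), while at +200 and +300 kb the intervals of the states overlapped. With 1 library per state these differences were not tested.

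**Figure D2:**
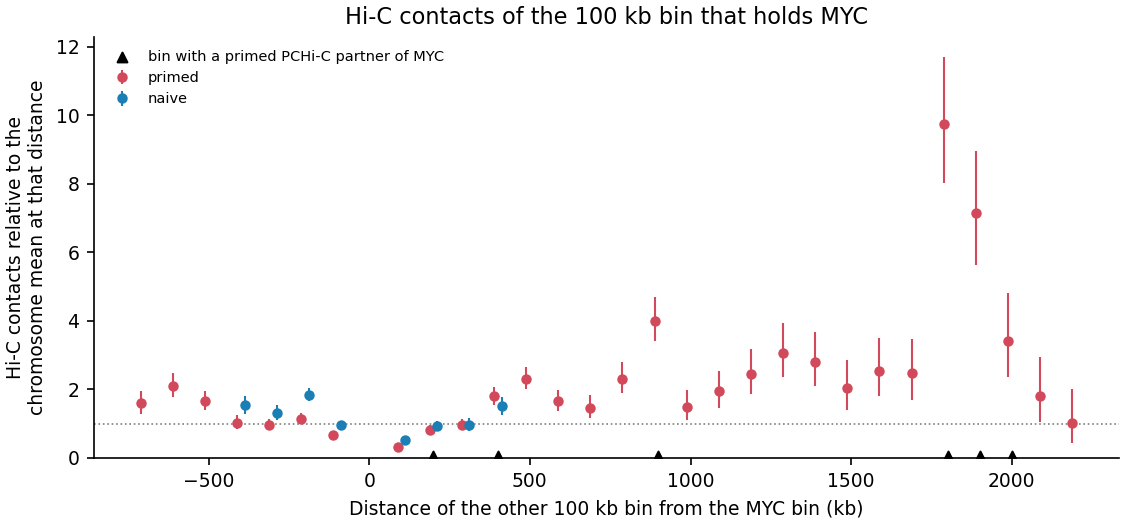
Hi-C contacts of the 100 kb bin that holds MYC, by the distance of the other bin (kb). Points are contacts divided by the mean of chromosome 8 at that distance, bars are exact Poisson 95% intervals, naive points are given only where the naive file is nearly complete, and triangles mark bins with a primed PCHi-C partner of MYC; the highest value, 9.73, is at +1800 kb.

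MYCN contacted fragments on both sides in both states, and the states differed in which groups were listed. Upstream, 10 fragments between -317.5 and -261.4 kb, at the 3′ part of DDX1 and beyond it, contacted MYCN in naive PSCs and 1 in primed PSCs. Their naive scores reached 9.03, at the bait of the lncRNA gene ENSG00000224194, from only 9 reads. A group of 12 fragments between +329.1 and +386.2 kb, in the lncRNA gene ENSG00000228876, had 11 naive and 2 primed contacts. The highest naive score of MYCN, 10.6 from 23 reads, was in this group at +365.2 kb. By contrast, 20 fragments between +500.7 and +582.4 kb had 15 naive and 13 primed contacts, 8 of them shared. The highest primed score, 11.82 from 17 reads, lay there at +548.9 kb, and the same fragment had 9.73 from 16 reads in naive PSCs.

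Next to the bait, fragments of MYCNOS between -13.9 and -10.7 kb were listed in both states, 2 in naive and 3 in primed PSCs, with 203 to 438 reads each. The longest contact of MYCN was with an intron of CYRIA, at +660.7 kb, in naive PSCs, and the longest in primed PSCs was with the bait of ENSG00000237633 at +582.4 kb (score 9.25). Of the 40 naive contacts of MYCN, 26 had a primed contact whose partner lay within 10 kb, and all 19 primed contacts had a naive one. These counts include the 12 shared contacts, which match themselves. For MYC such a match was found for 3 of 6 naive and 2 of 21 primed contacts, its 2 shared ones included.

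**Figure D3:**
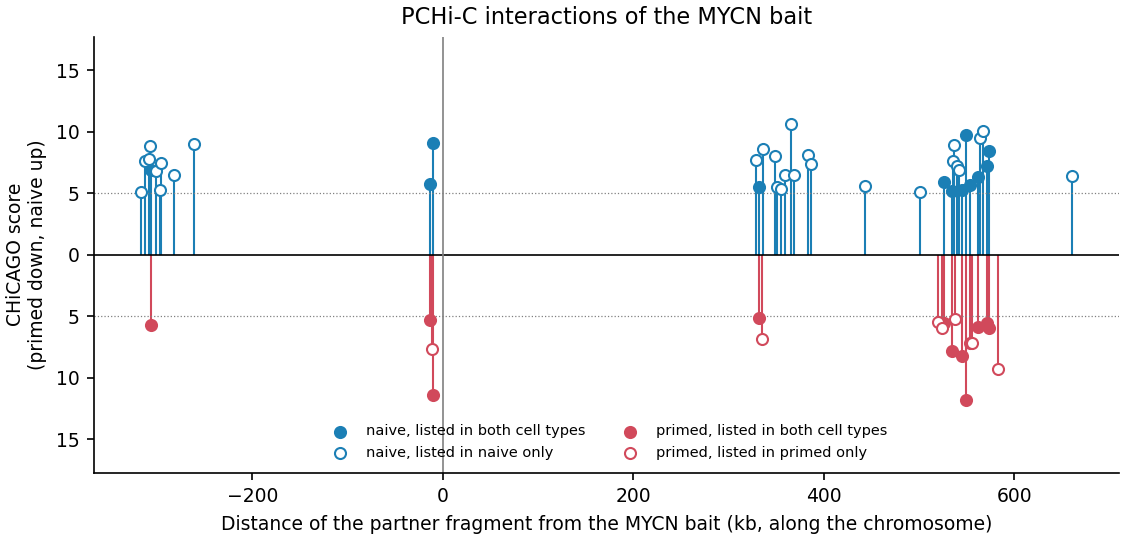
PCHi-C interactions of the MYCN bait, drawn as for MYC with distance in kb, naive scores upwards and primed scores downwards. Naive contacts fill the groups at -317.5 to -261.4 kb and +329.1 to +386.2 kb, in which primed PSCs have 1 and 2 contacts, while both states share the group at +500.7 to +582.4 kb.

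In Hi-C, the naive value was the higher at every compared bin of MYCN, from -600 to +600 kb, except those at +500 and +600 kb. These bins included those with mainly naive PCHi-C contacts and others with none. At -300 kb MYCN had 209 naive contacts, 1.75 times the mean of chromosome 2 (1.52 to 2.00), and 172 primed ones, 1.16 times (0.994 to 1.35). At +400 kb the values were 1.74 (1.47 to 2.04) and 1.20 (1.01 to 1.42). Where no contact was listed, the naive value at -200 kb was 1.52 (1.34 to 1.71) against 1.13 (0.993 to 1.28) in primed PSCs. At +200 kb, also without a listed contact, it was 0.939 (0.801 to 1.09) against 0.662 (0.557 to 0.781). At +500 kb, within the group listed in both states, the values were 1.95 (1.63 to 2.32) in naive and 2.39 (2.08 to 2.74) in primed PSCs, with overlapping intervals.

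MYCL had few contacts and they did not differ in place. Both MYCL baits were listed with the same 19151-base fragment of BMP8B, a gene of the bone morphogenetic protein family, about 0.1 Mb away (chr1:39771589-39790739). The MYCL-AS1 bait contacted it with scores of 5.77 in naive and 6.17 in primed PSCs. The MYCL promoter bait contacted it in primed PSCs only, with a score of 6.14. H3K4me1 of this fragment was low in every library, from -3.26 to -2.18 mean log2 RPM per tile.

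H3K4me1 was compared over the listed fragments as the mean log2 RPM (reads scaled to library size by the authors) of 500 bp tiles, with limma over all 88413 of them. Of these, 13.2% were called higher in naive and 8.19% higher in primed PSCs at a Benjamini-Hochberg adjusted p of 0.05, and the median difference, primed minus naive, was -0.06. Values of nearly empty fragments depend on depth, because an empty tile stands at -2.91 to -4.89 in different libraries. The authors scaled the libraries by totals that the values place between about 6740000 reads (naive replicate 2) and 26600000 reads (primed replicate 3). Nothing in the labels says whether replicates were separate cultures, so p-values measure the spread between these libraries.

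None of the MYC, MYCN or MYCL baits was called. The MYC bait had mean log2 RPM of -0.14 and -0.47 in naive and 0.49, -0.58 and -0.40 in primed PSCs, with overlapping groups (difference 0.14, SE 0.39, limma adjusted p = 0.887). The MYCN bait had 0.14 and 0.02 in naive and -0.18, -0.58 and -0.55 in primed PSCs. Here both naive libraries were the higher, but the difference of -0.52 (SE 0.36) was not called (limma adjusted p = 0.379). The MYCL promoter bait differed by -0.50 (SE 0.36, limma adjusted p = 0.403) and the MYCL-AS1 bait, the most marked of the 9 at 0.85 to 1.37 in every library, by 0.10 (SE 0.38, limma adjusted p = 0.930).

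Within these baits single tiles did differ in both directions. Tiles were tested across the genome where log2 RPM was above 0 in at least 2 libraries; 26.1% of the 465122 tested were called higher in naive and 26.0% higher in primed PSCs. In the MYC bait 4 of 15 tested tiles were called, all higher in primed PSCs and all side by side at the 3′ end of MYC (chr8:127741501-127743500). In the second of them, naive libraries had log2 RPM of -2.45 and -2.91 and primed libraries 1.55, 0.19 and 0.27 (difference 3.35, SE 0.64, limma adjusted p = 0.000635). In the MYCN bait 6 of 29 tested tiles were called higher in naive and 2 higher in primed PSCs. Of the naive ones, 3 lay side by side downstream of MYCN (chr2:15950001-15951500), and the last of these had 1.39 and 1.33 in naive and -3.15, -3.13 and -2.73 in primed PSCs (difference -4.36, SE 0.57, limma adjusted p = 9.96e-05). In the MYCL promoter bait 1 of 4 tested tiles was called, higher in naive PSCs. Tiles that pass through 1 state alone had to differ, so these counts describe and do not test the baits.

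Of the 5 PVT1 baits, 2 were called higher in primed PSCs, as were 1020 of all 15982 baited fragments. The bait at +273.1 kb from MYC had -3.54 and -2.39 in naive and -1.34, -1.45 and -1.45 in primed PSCs (difference 1.55, SE 0.39, limma adjusted p = 0.0063), and was not called without naive replicate 1 (0.98). The MIR1205 bait at +223.4 kb had -1.23 and -1.30 in naive and -0.14, -0.34 and -0.30 in primed PSCs, close to the threshold (difference 1.01, SE 0.35, limma adjusted p = 0.0479). This call was kept in 4 of 11 alternatives, and was lost without naive replicate 1 (1.04), naive replicate 2 (0.97), primed replicate 1 (0.95) or primed replicate 3 (1.03). Groups did not overlap at the baits at +208.1 kb and of the internal promoter either, but their differences of 0.59 (SE 0.36) and 0.83 (SE 0.37) were not called (limma adjusted p = 0.299 and 0.129). The MIR1208 bait, near empty in all libraries, differed by 0.10 (SE 0.47, limma adjusted p = 0.945). The bait at +273.1 kb was thus higher for H3K4me1 in primed PSCs while its contact with MYC was listed in naive PSCs only.

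Of the 47 partner fragments of MYCN, 6 were called higher in naive and 1 higher in primed PSCs, beside 13.2% and 8.19% of all listed fragments. The largest difference was that of the 224-base DDX1 intron fragment shown above, with 0.84 and 0.83 in naive and -3.15, -2.98 and -2.41 in primed PSCs (12.8-fold, difference -3.68, SE 0.37, limma adjusted p = 3.06e-06). Its value comes from 1 tile of 500 bp, which reaches beyond the fragment. The adjoining fragment at -307.8 kb had 0.60 and -0.46 in naive and -3.22, -1.98 and -2.33 in primed PSCs (5.98-fold, limma adjusted p = 0.000188). The next one, at -306 kb and contacted in both states, was still well marked in primed PSCs at -0.93 to -0.32 against 0.69 and 0.32 in naive PSCs (2.08-fold, limma adjusted p = 0.0481). No other fragment of the DDX1 group was called, and this last call was kept in 2 of 11 alternatives. The other 2 kept theirs in all 11.

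In the group downstream, the fragments at +329.1, +334.7 and +336.6 kb were called higher in naive PSCs, by 2.74-fold, 2.64-fold and 4.12-fold (limma adjusted p = 0.00611, 0.019 and 0.00754). The last of these is the 198-base fragment shown above. Its naive libraries stood apart, at -2.12 and 0.42, against -3.30 to -2.41 in primed PSCs, and without naive replicate 2 the difference was -0.77, not -2.04, and was not called. Without that library those at +329.1 and +334.7 kb were not called either (-1.28 and -1.05), and that at +334.7 kb was not called without primed replicate 3 (-1.29). The fragment at +383.5 kb went the other way, with -2.69 and -2.37 in naive and -1.15, -1.68 and -1.49 in primed PSCs (2.13-fold, limma adjusted p = 0.0363). This call was kept in 5 of 10 alternatives, and was lost without naive replicate 1 (difference 0.93), naive replicate 2 (1.25), primed replicate 1 (0.95) or primed replicate 3 (1.11). None of the 20 fragments of the group listed in both states was called. The median difference over the MYCN partners was 0.01, beside -0.06 over all fragments.

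Among the 25 partner fragments of MYC, 1 was called higher in naive and 3 higher in primed PSCs, beside 13.2% and 8.19% of all listed fragments. The 3 included both PVT1 baits above. The naive one was the PCAT1 fragment at -863.4 kb, with -0.07 and -0.48 in naive and -0.98, -1.44 and -1.83 in primed PSCs (2.21-fold, limma adjusted p = 0.0346). This call was kept in 3 of 11 alternatives, and was lost without naive replicate 1 (difference -0.94), naive replicate 2 (-1.35) or primed replicate 3 (-0.94). The third primed one was the distal fragment at +1797.4 kb, with -1.65 and -2.25 in naive and 0.05, -0.69 and -1.57 in primed PSCs. Its difference of 1.22 (SE 0.43, limma adjusted p = 0.0494) lay at the threshold, and it was not called without primed replicate 1 (0.82), naive replicate 1 (1.52) or naive replicate 2 (0.92). It was the only one called of the 15 partners over 1 Mb downstream, and the median of these was -2.86 in naive and -2.63 in primed PSCs, below the -2.39 and -2.48 of all fragments. The primed-only partners between +904.4 and +919.5 kb went the other way, with every naive library above every primed one at all 3, but none was called (limma adjusted p from 0.0759 to 0.599). The neighbour of the called fragment, which had the highest CHiCAGO score, had overlapping groups, -1.75 and -1.46 in naive and -0.56, -0.90 and -1.93 in primed PSCs.

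**Figure D4:**
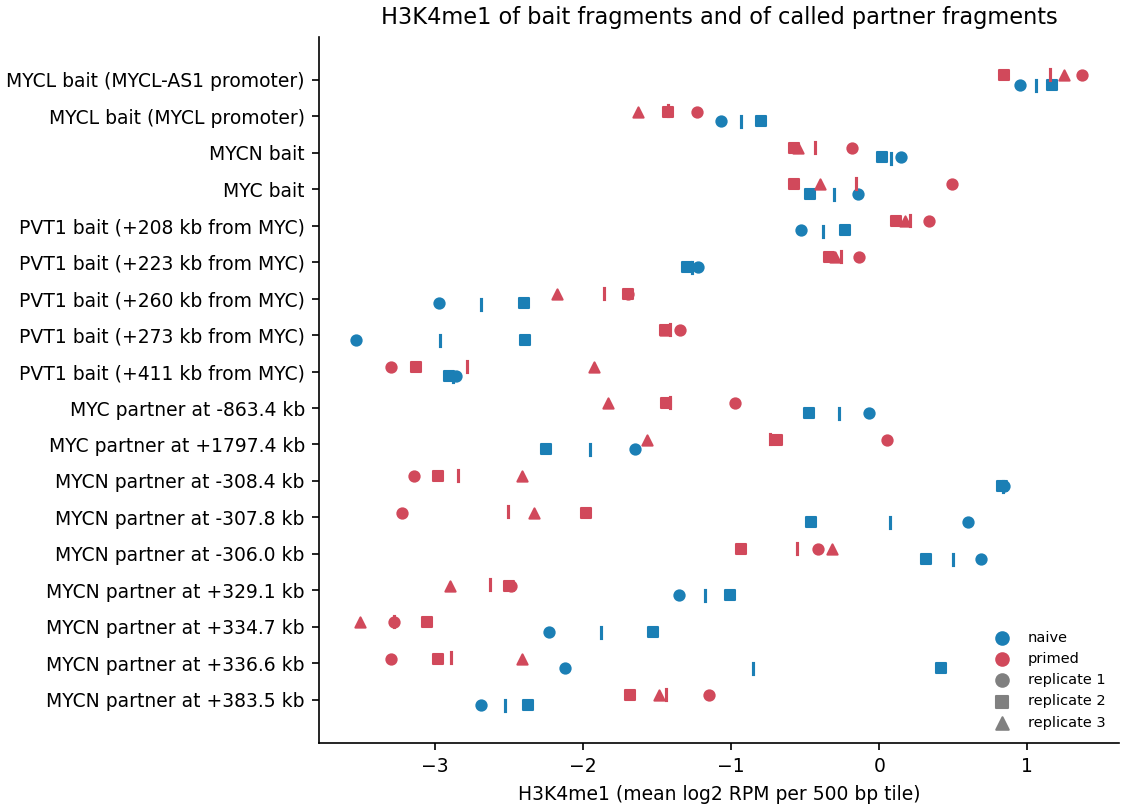
H3K4me1 (mean log2 RPM per 500 bp tile) in every library at the 9 bait fragments and at the partner fragments that were called and are not baits, named by distance (kb). Each symbol is 1 library, short lines are means of the 2 naive or 3 primed libraries; the MYC and MYCL-AS1 baits overlap between states, while the MYCN partners near -308 kb are separated by several log2 units.

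Contact and mark did not always go together. Counting baits that are partners of MYC, 11 partner fragments were called. Of these, 2 had contacts in both lists and 9 in 1 list. H3K4me1 was higher in the state that listed the contact for 6 of the 9 and in the other state for 3. The 3 were MYCN at +334.7 and +383.5 kb and MYC at +273.1 kb. Each lost its call without at least 1 of the libraries, but so did most of the 6. Of the 11, only MYCN at -308.4 and -307.8 kb, both among the 6, kept their call in every alternative. Over all 81 member fragments, every naive library was above every primed one at 21 and the reverse held at 16. Over all listed fragments these shares were 26.4% and 15.9%.

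Across the desert, H3K4me1 changed sides along the chromosome. The interval from 127 to 130 Mb as a whole did not separate the states, with 0.342 and 0.315 mean RPM per tile in naive and 0.371, 0.317 and 0.335 in primed PSCs, 1.38 to 1.56 times the mean of the genome. Upstream of MYC the level was 0.350 and 0.320 in naive and 0.203, 0.212 and 0.212 in primed PSCs, 0.623 times as high. Within PVT1 it was 0.799 and 0.755 in naive and 1.18, 0.941 and 0.978 in primed PSCs, 1.33 times as high. The order was the same from PVT1 to CCDC26 (1.22 times) and within CCDC26, at 0.154 and 0.125 in naive and 0.195, 0.178 and 0.193 in primed PSCs (1.35 times). From the end of CCDC26 to 130 Mb, naive libraries were again above the primed ones, 0.532 and 0.496 against 0.459, 0.334 and 0.377. Between MYC and PVT1 the groups overlapped.

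Such separation is common: every naive library was above every primed one in 29.9% of the 5889 windows of 500 kb of the genome, and the reverse held in 39.8%. Chromosome 8 took 4.19% to 4.53% of the tile reads in naive and 4.78% to 4.98% in primed libraries, and the part of this in the segments was not tested. Tile calls come from the same values, and a tile that passed the filter through 1 state alone had to differ, so their counts are a description. Upstream of MYC 65 of 110 tested tiles were called higher in naive and 7 higher in primed PSCs, in PVT1 3 and 75 of 335, in CCDC26 11 and 32 of 75, and beyond CCDC26 43 and 5 of 126. Of the 6000 tiles of the desert 728 were tested, with 129 called higher in naive and 136 higher in primed PSCs. Both shares were below those of all tested tiles of the genome, 26.1% higher in naive and 26.0% higher in primed PSCs. Among the largest differences, chosen after their values were seen, a tile at -141.4 kb from the MYC start (chr8:127594001-127594500) had 1.31 and 1.49 in naive and -3.15, -3.13 and -3.15 in primed PSCs, and a tile at +1724.6 kb (chr8:129460001-129460500) had -4.45 and -2.75 in naive and -0.15, 0.83 and 0.31 in primed PSCs (limma adjusted p = 1e-04 and 0.00026).

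**Figure D5:**
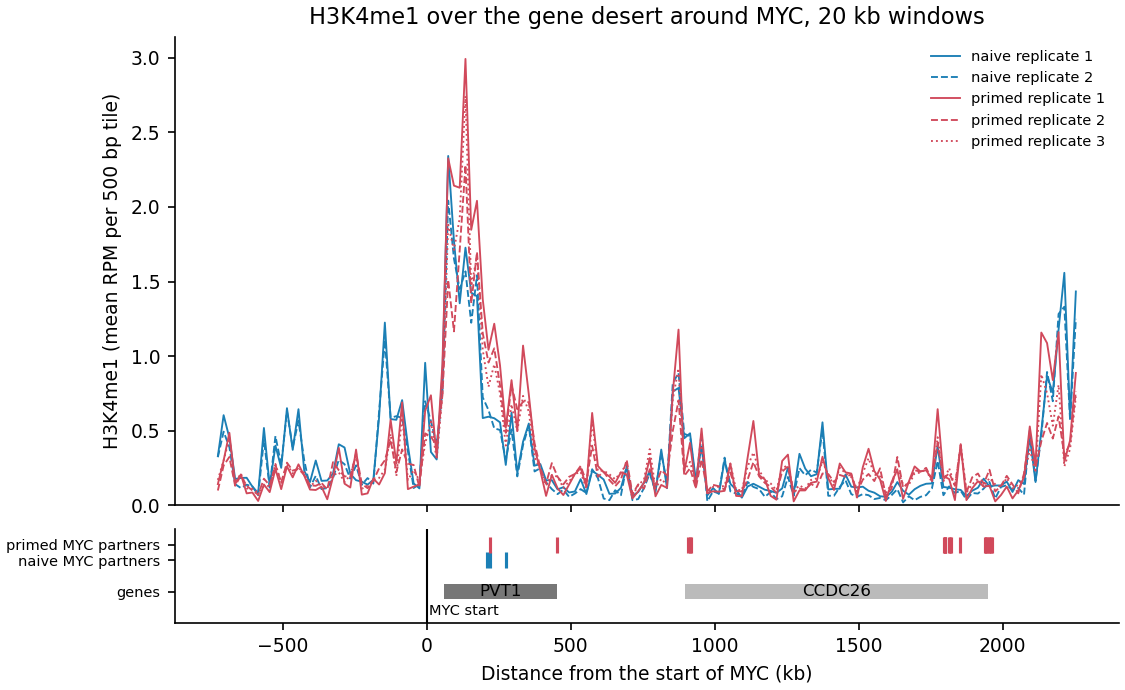
H3K4me1 over the gene desert around MYC (mean RPM per 500 bp tile in windows of 20 kb), by distance from the MYC start (kb), with 1 line per library. The lower panel gives the extent of PVT1 and CCDC26 and the PCHi-C partners of MYC within the interval; naive lines lie mostly higher upstream of MYC and primed lines mostly higher across PVT1, the segment with the highest level, 0.755 to 1.18, in all libraries.

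By H3K4me1 in the 5 libraries, the baited fragments near the MYC bait (Euclidean distance of the log2 values) included those of DSC3 (0.225) and SPTB (0.242). The nearest to MYCN were DPH5 (0.220), PLXNA2 (0.223) and STOM (0.234), for the MYCL promoter bait LRRC8D (0.185), ZBTB6 (0.199) and SURF4 (0.220), and for the internal PVT1 promoter bait 1 with no annotated promoter (0.183), DIP2C (0.276) and RERGL (0.281).

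Genes that work with MYC had baits in both lists. Over all baited fragments, 2419 of 15982 were called higher for H3K4me1 in naive and 1020 higher in primed PSCs. In the MAX network, whose members share MAX as a partner, 4 of 10 genes had a listed bait, and 2 of the 4 baits were called higher in naive PSCs: MAX by 1.72 (SE 0.36, limma adjusted p = 0.00142) and MXD1, a repressor that competes with MYC for MAX, by 2.36 log2 units (SE 0.36, limma adjusted p = 9.5e-05). Interactions differed most for MXD3 (33 naive, 15 primed), MXD1 (13 and 21) and MNT (4 and 2). Among the baits of MYC cofactors and turnover factors, those of FBXW7 and HUWE1, ubiquitin ligase genes, were higher in naive PSCs, by 1.11 (SE 0.39) and 1.52 log2 units (SE 0.40; limma adjusted p = 0.048 and 0.00829). The largest differences in interactions were those of PIM1 (18 and 12), TRRAP (34 and 38) and FBXW7 (3 and 0).

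Of 11 baits of classical MYC targets, LDHA and TERT were higher in naive PSCs, by 1.25 (SE 0.35, limma adjusted p = 0.0149) and 1.30 log2 units (SE 0.38, limma adjusted p = 0.0175). Interactions differed most for NCL, the nucleolin gene (22 naive, 58 primed), FBL (16 and 5) and CCND2 (34 and 41). Of 9 baits of WNT pathway genes, 1 of the 2 of TCF7L1 was higher in primed PSCs by 1.21 (SE 0.37, limma adjusted p = 0.0236), and the other differed by -0.82 (SE 0.35, limma adjusted p = 0.113). TCF7L2 had 16 naive and 72 primed interactions, LEF1 25 and 12, CTNNB1 4 and 8, and AXIN2 0 and 4. Median differences of the 4 lists ran from -0.84 to -0.33.

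The labelled states were checked at the baits of marker genes, since no expression values were used. Of 5 baits of naive markers DPPA5 and DPPA3 were higher for H3K4me1 in naive PSCs, and of 9 baits of primed markers none was called higher in primed PSCs by limma. DUSP6 and OTX2 had 0 naive and 35 and 15 primed interactions. Of 4 fibroblast baits COL1A2 and PRRX1 were higher in primed PSCs, and of 4 trophoblast baits GCM1 was higher in naive and 1 of KRT7 in primed PSCs; their part in the members' values was not tested.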

How the data were processed

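PCHi-C, Hi-C and H3K4me1 CUT&RUN data of naive and primed H9 NK2 PSCs were used, and samples were grouped by their labels. The authors mapped PCHi-C and Hi-C reads to GRCh38 with HiCUP. The deposited lists give, per interaction, a CHiCAGO score and a read number, both from 2 replicates combined by the authors, so the read number is also handled as a score. The deposited Hi-C values are counts per pair of 100 kb bins. The deposited H3K4me1 values are log2 RPM of 500 bp tiles, made by the authors with Trim Galore 0.5.0, Bowtie2 2.3.2 (submitters' processing notes) and SeqMonk; low values are whole multiples of 1 read (100% within 0.02), with empty tiles at 0.9 reads.

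Column 4 of the lists holds no gene names, so baits were found by overlap with GENCODE release 44 genes; promoters were transcript starts with 1000 bases upstream. An interaction of MYC with PVT1 counts for both genes. A fragment's value is the mean of the tiles centred in it, or of the nearest tile. H3K4me1 was fitted with limma 3.58.1 (trend, R 4.3.3) over all fragments, and over tiles above 0 log2 RPM in at least 2 libraries; the code was tested on simulated data. edgeR 4.0.16 and DESeq2 1.42.0 were run on the recovered whole reads as alternatives. Hi-C counts were divided by the chromosome's mean at the same distance, in naive PSCs only where the file listed at least 95% as many pairs as the primed one. Partner groups were split at gaps over 50 kb. Other libraries of the series were not analysed here.

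The named fragments were the 10 called partners with the largest difference in each direction (fewer were called), baits in the desert or contacted by a member, the longest contacts, the 3 genes of each list with the largest difference in interactions and its called baits, and the 3 nearest baits. The members and lists were chosen with earlier results of these data known. A few genes that these rules name are not reported here.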

Additional observations from a re-analysis of the deposited data

How the results depend on the processing

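Of the values that answer a comparison, 72 were unchanged within their limits and 40 moved. These labels do not record whether a direction reversed. With scores of 10 or more only, 50% of MYCN listings were primed, but few were left: 10.6 and 10.04 in naive and 11.38 and 11.82 in primed PSCs. Counting ends within 10 kb, 76.3% of the listings of MYCN had a match in the other state, exact matches included. For MYCL this was 100% and for all members 57.0%. These are shares of the listings of both states added together. As listed, shared interactions were 25.5%, 50% and 19.2% of the interactions in either list, so the 2 sets of shares have different bases. With only fragments above -1 log2 RPM in 2 libraries, 7428 fragments were higher in naive and 4419 in primed PSCs, and 3 and 0 partners of MYCN and 1 primed of MYC were called. Leaving out 1 library gave 5131 to 13937 fragments higher in naive PSCs and 1861 to 8965 in primed PSCs; the lowest came without naive replicate 2 and naive replicate 1. It gave 2 to 8 naive and 0 to 2 primed partners of MYCN, and 0 to 2 naive and 0 to 4 primed partners of MYC. Primed partners of MYCN numbered 2 with empty tiles at 0, with the same median in every library, with edgeR and with DESeq2, and each of these gave 0 naive partners of MYC. The desert held 29 naive and 41 primed tiles with the stricter filter, and 222 and 204 with none. Leaving out 1 library gave 49 to 142 and 60 to 165. Which state had more called tiles in the desert thus changed with the setting. There were 142 naive and 99 primed without primed replicate 1, but 132 and 165 without primed replicate 2.

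With the replicate number as a replicate block, which uses 2 pairs and drops primed replicate 3, 3 primed partners of MYCN and 0 naive partners of MYC were called. Same-numbered libraries deviated together by correlations of 0.0691 and 0.178. With 2 naive libraries their deviations from the mean are mirror images, so this check cannot decide whether the numbers pair libraries. The main fit did not pair them. All 11 called fragments kept their direction in every alternative, and 2 kept their call. Depth limits nearly empty fragments. Most long Hi-C pairs are missing from the naive listing, and the reason was not tested.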
